A study of Mus musculus with 24 samples.

Results

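The data described here are the response of mouse bone marrow-derived macrophages carrying floxed Smad2 alleles to 4 h of transforming growth factor β1 (TGF-β1). They comprise 6 of the 24 RNA-seq libraries of the study, chosen by their labels: 3 libraries labelled Smad2 fl/fl and treated with TGF-β1 at 10 ng/ml, and 3 labelled Smad2 fl/fl and left untreated. Both groups carried Smad2 alleles flanked by loxP sites on a C57BL/6 background and the labels name no Cre recombinase for either. The cells were grown from the tibial marrow of mice aged 2 to 3 months in medium with interleukin-3 and colony-stimulating factor 1 (CSF-1) at 12 ng/ml for 24 h, and then in CSF-1 at 120 ng/ml for 48 h. All cells went without serum for about 16 h before TGF-β1 was added. No vehicle was stated for the untreated cells. The labels do not say whether the 3 libraries of a group came from separate mice, and the protocol speaks of 8 cDNA libraries where there are 24 samples, so pooling of mice is unknown and p-values measure the spread between these libraries. The other 18 libraries are a Smad3 fl/fl pair of groups and the groups labelled as myeloid knockouts of either gene, and they were used to estimate the spread and for a closing comparison.

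TGF-β1 binds a pair of type II receptors, which recruit and phosphorylate type I receptors of the TGFBR1 (ALK5) kind. The active receptor phosphorylates SMAD2 and SMAD3, which bind SMAD4, enter the nucleus and act on target genes together with partner factors such as AP-1, RUNX and C/EBP proteins. Among the targets are inhibitors of the pathway itself, including SMAD7, SKI and SKIL. In macrophages TGF-β is known for restraining inflammatory gene expression and, in the brain, for maintaining the microglial expression programme.

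The 6 libraries held 19495444 to 24918582 counted reads. Levels are given as CPM, the count per 1000000 counted reads corrected for composition, and changes as fitted log2 values with their standard error (SE), treated minus untreated; a gene passed at an adjusted p under 0.05. The untreated libraries differed more among themselves than the treated ones: on the first principal component, which held 48.15% of the variance, the treated libraries lay between 36.82 and 39.7 and the untreated ones at -21.08, -58.53 and -35.78. Untreated library 2 stood apart from the other untreated libraries on the second component as well. All 10 macrophage markers were expressed, with a summed level of 27430 to 32240 CPM untreated and 23500 to 24890 CPM treated. The B cell markers summed to 157 to 238 CPM untreated and 90.9 to 107 CPM treated, with Pax5 at 0 reads. Nearly all of that sum was Ighm, the immunoglobulin μ chain, at 192, 235 and 154 CPM untreated and 93.8, 104 and 87.6 CPM treated (-1.03 ± 0.27; adjusted p 0.0852 without untreated library 2 and 0.0505 without treated library 1), which was named after its values were seen. Ms4a1, another B cell marker, was at 0.398, 1.01 and 1.04 CPM untreated and 1.73, 1.28 and 2.45 CPM treated. Mast cell and basophil markers summed to 23.9 to 38.2 CPM untreated and 14.7 to 19.9 CPM treated, nearly all of it Hdc, the histamine-forming enzyme. Neutrophil and granulocyte precursor markers summed to 411 to 491 CPM untreated and 370 to 416 CPM treated. Nearly all of that sum was Csf3r, at 408, 452 and 488 CPM untreated and 367, 375 and 413 CPM treated. Markers of the remaining cell types checked were at or below 120.2 CPM in sum. The part of other cells in the results was not tested, and in bulk RNA fewer cells of a type and less RNA per cell cannot be told apart.

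Of 14261 genes tested, 1584 (11.1%) passed, 1051 of them higher (7.37%) and 533 lower (3.74%) after TGF-β1. The rises were larger than the falls: 208 genes rose at least 4-fold and 25 fell at least 4-fold, while 93 rose and 5 fell at least 8-fold. The median log2 change was 1.07 among the genes that rose, -0.78 among those that fell and 0.009 over all genes tested. Of the genes that rose, 168 were under 1 CPM in the untreated cells. The share of genes that passed increased with level, from 2.43% of genes under 1 CPM to 20% of those over 100 CPM. The treated and untreated libraries did not overlap in CPM for 1577 of the 1584 genes, among them every gene described as rising or falling below. Over all 14261 genes tested, 4824 (33.8%) did not overlap. The test and the overlap use the same libraries, so the lack of overlap is not separate evidence. The counts lean on single libraries: leaving out 1 of the 6 at a time gave 735 to 927 genes higher and 307 to 642 lower, the fewest lower without untreated library 2. Without treated library 1 the number lower was 332.

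**Figure D1:**
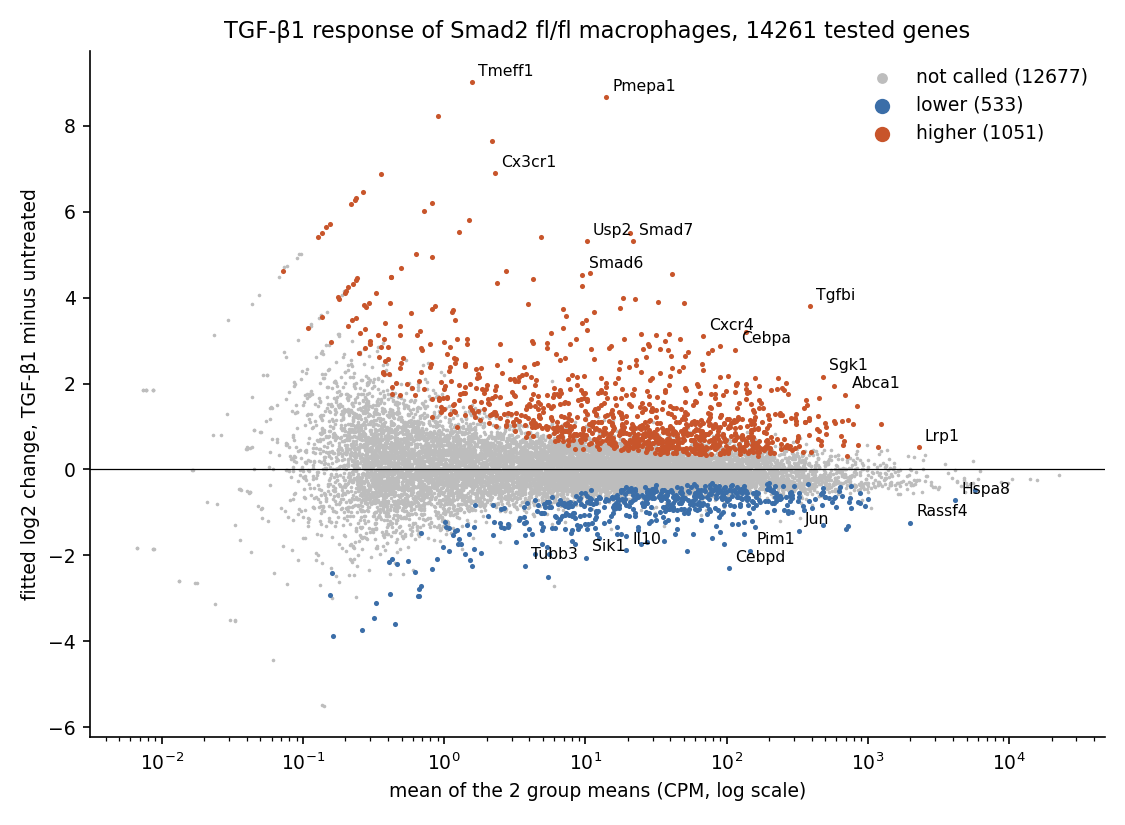
Each point is 1 tested gene, with its mean level over the 6 libraries in CPM on a log axis (x) and its fitted log2 change, TGF-β1 minus untreated (y); genes that passed are coloured. The 1051 genes that rose reach further from 0 than the 533 that fell.

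Genes that restrain TGF-β signalling rose, among them Pmepa1, Smad7, Smad6 and Spsb1 of the 12 largest rises. Of the 17 tested members of a list of feedback inhibitors and SMAD corepressors, 11 rose, 1 fell and 5 did not pass, with a median log2 change of 1.04 against 0.009 over all genes; 10 to 11 rose when any of the 6 libraries was left out. Pmepa1 (ENSMUSG00000038400, chr2:173224458-173276533 in GRCm38), which encodes a membrane protein that sequesters receptor-activated SMADs, was at 0.119, 0 and 0.0519 CPM in the 3 untreated libraries and at 29.3, 30.2 and 24.7 CPM in the 3 treated ones. It went from near 0 to a moderate level in every treated library, a log2 change of 8.67 ± 0.49 (adjusted p 3.19e-11). Smad7 (ENSMUSG00000025880, chr18:75367529-75395935), the inhibitory SMAD that directs ubiquitin ligases to the receptor, was at 0.835, 1.22 and 1.14 CPM untreated and 42, 44.1 and 40.9 CPM treated. Its lowest treated library was far above its highest untreated one (log2 change 5.32 ± 0.23, adjusted p 5.18e-13). Smad6 (ENSMUSG00000036867, chr9:63953076-64022059), the inhibitory SMAD known mainly for restraining the BMP branch, was at 0.954, 0.477 and 0.882 CPM untreated and 21, 18.4 and 15.3 CPM treated, a log2 change of 4.54 ± 0.28. Spsb1, a SOCS-box ubiquitin ligase adaptor that targets the type II receptor, was at 1.15, 3.34 and 2.13 CPM untreated and 37.7, 38.1 and 27.5 CPM treated, a log2 change of 3.99 ± 0.40.

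The remaining inhibitors, of which Ski, Skil, Tgif1, Smurf1 and Smurf2 are named after their values were seen, were mostly already expressed in untreated cells and rose by less. Ski and Skil encode corepressors that bind SMAD complexes. Skil rose from 124 ± 24.4 to 417 ± 35.4 CPM (SD, n = 3) and Ski from 59.4 ± 6.84 to 259 ± 17.4 CPM, log2 changes of 1.75 ± 0.23 and 2.12 ± 0.12. The homeobox corepressor gene Tgif1 changed by 1.39 ± 0.17 and the ubiquitin ligase genes Smurf2 and Smurf1 by 0.87 and 0.70. Tmeff1, which encodes a transmembrane protein with follistatin-like domains, had no read in the untreated libraries and was at 3.09, 2.99 and 3.39 CPM in the treated ones, at least 66.4-fold higher when 3 reads are allowed for the untreated group. Wwp1, another ubiquitin ligase gene, was the member that fell (-0.70 ± 0.21); that call was lost without untreated library 1, untreated library 3 or any treated library (adjusted p up to 0.152). On the length-corrected FPKM scale the order of treated levels differed from the order of changes: Skil stood at 102, Ski at 50.6, Spsb1 at 38.4, Smad7 at 26.2, Smad6 at 15 and Pmepa1 at 14.4 FPKM.

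**Figure D2:**
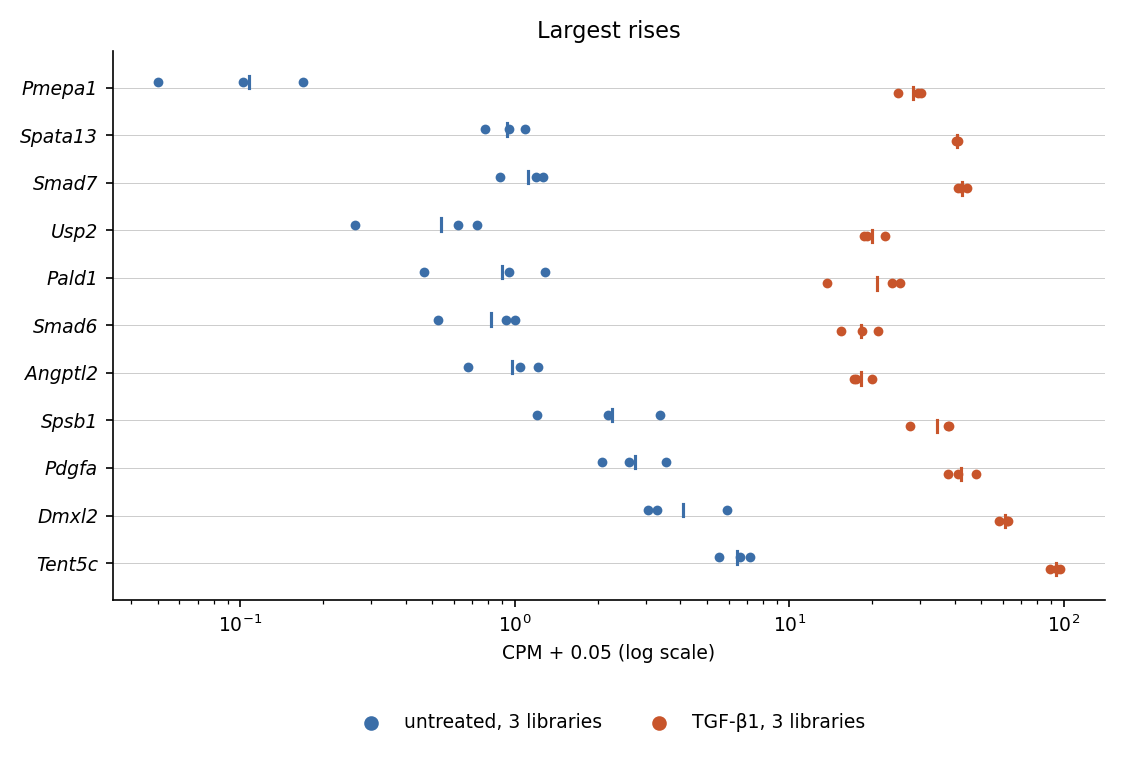
11 of the 12 largest rises among genes reaching a mean of at least 10 CPM, with each library as a point; the 3 untreated and 3 treated libraries of each gene do not overlap. Pmepa1, Spata13, Smad7 and Usp2 were near or below 1 CPM in every untreated library.

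Promoter windows of 5 of the 12 largest rises are shown, so that their upstream letters can be compared with those of all tested genes. These genes went from about 1 CPM or less to over 10 CPM within 4 h. They are not all the genes that did so: Smad7 also did, and no window of it is shown. The window of Spsb1, another of the 12, held none of the letters marked below and is not printed. Each is the RefSeq window of GRCm38.p6 from 250 bases before to 50 bases after the annotated start, written 5′ to 3′ on the gene's strand: Smad6 at chr9:64022010-64022309 on the minus strand, Usp2 at chr9:44084670-44084969 on the plus strand, Angptl2 at chr2:33215711-33216010 on the plus strand, both windows of Spata13 at chr14:60634455-60634754 and chr14:60732654-60732953 on the plus strand, and Pald1 at chr10:61383290-61383589 on the minus strand. The Usp2 window lies inside the annotated span of the counted gene, and the Angptl2 window ends before the span of its gene begins. Which start the transcripts that rose used was not tested. Capitals mark matches to GTCTAGAC, those to CAGACA, which reads TGTCTG on the other strand, and those to the AP-1 letters TGANTCA. Spata13 and Pald1 have none of these.
Smad6 promoter: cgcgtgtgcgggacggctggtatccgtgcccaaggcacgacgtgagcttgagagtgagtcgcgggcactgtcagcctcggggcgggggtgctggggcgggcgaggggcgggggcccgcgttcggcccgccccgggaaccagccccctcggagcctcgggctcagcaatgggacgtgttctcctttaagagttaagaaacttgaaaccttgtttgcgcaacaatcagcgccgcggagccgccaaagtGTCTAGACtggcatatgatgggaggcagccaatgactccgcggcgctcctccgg
Usp2 promoter: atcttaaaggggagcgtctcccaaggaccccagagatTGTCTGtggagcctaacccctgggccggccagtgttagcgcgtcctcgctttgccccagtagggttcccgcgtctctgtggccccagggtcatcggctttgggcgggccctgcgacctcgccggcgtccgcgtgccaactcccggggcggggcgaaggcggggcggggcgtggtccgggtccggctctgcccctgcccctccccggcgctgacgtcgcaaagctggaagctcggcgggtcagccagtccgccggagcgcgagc
Angptl2 promoter: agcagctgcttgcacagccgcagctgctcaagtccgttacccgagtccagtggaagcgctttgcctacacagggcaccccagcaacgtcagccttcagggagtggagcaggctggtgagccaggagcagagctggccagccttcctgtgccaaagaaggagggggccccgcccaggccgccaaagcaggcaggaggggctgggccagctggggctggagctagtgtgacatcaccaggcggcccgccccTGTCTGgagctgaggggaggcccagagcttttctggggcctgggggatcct
Spata13 promoter, window 1: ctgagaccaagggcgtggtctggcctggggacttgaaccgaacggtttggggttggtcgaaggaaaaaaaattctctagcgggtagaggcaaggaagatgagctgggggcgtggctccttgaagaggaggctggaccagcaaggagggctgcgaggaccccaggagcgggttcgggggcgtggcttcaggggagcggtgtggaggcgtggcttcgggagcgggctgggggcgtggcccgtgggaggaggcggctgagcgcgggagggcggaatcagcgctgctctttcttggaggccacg
Spata13 promoter, window 2: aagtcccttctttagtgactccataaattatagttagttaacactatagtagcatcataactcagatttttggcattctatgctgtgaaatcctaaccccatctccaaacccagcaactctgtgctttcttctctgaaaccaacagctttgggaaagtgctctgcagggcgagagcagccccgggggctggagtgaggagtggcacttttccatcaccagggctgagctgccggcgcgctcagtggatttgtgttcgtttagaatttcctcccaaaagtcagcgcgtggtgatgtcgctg
Pald1 promoter: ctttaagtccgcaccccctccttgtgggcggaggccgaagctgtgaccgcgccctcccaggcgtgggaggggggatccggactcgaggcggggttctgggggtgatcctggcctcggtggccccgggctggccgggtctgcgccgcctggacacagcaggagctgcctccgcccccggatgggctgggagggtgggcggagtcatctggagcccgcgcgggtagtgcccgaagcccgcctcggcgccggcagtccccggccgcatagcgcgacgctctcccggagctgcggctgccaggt

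The palindrome GTCTAGAC, a known SMAD-binding sequence, occurred once in the Smad6 window. With all motifs searched on both strands, it was in 0.238% of the 12599 windows of tested genes, in 6 of the 1049 windows of genes that rose (0.572%) and in none of the 583 windows of genes that fell. Of the 28 tested genes with a window holding it, 6 rose and none fell, against 7.37% higher and 3.74% lower over all tested genes. Smad6 had the largest change of the 6 that rose. The median log2 change of the 28 was 0.058, against 0.009 over all genes. Whether genes with the palindrome respond as a class was not tested. CAGACA, the shorter SMAD element, present as its reverse complement in the Usp2 and Angptl2 windows, was in 17.2% of windows of genes that rose, 15.6% of those that fell and 16.2% of all. The G- and C-rich SMAD letters GGCGC were in 63.6%, 60.7% and 59.5%, in the same order, and GGCCG in 62.5%, 55.1% and 57.1%. The Pald1 window held 4 matches to GGCGC and had a G and C content of 74.7%, against a median of 62.3% for genes that rose and 60% for all. The AP-1 letters TGANTCA were in 6.01%, 4.97% and 5.57%, and the PU.1-type letters GAGGAAGT in 4.19%, 5.66% and 3.44%. These shares rest on 798 of the 1051 genes that rose and 415 of the 533 that fell, and a match describes letters only.

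Among receptors, Tgfbr1 alone of 10 tested members passed in the fit to all libraries. Tgfbr1 (ENSMUSG00000007613, chr4:47353222-47414931), the type I receptor, was at 19.5, 8.42 and 13.5 CPM untreated and 99.2, 84.9 and 93.8 CPM treated. All treated libraries lay above all untreated ones, with a log2 change of 2.74 ± 0.29 (adjusted p 5.37e-07). Tgfbr2, the type II receptor that binds the ligand, was at 277, 318 and 258 CPM untreated and 267, 286 and 231 CPM treated and did not pass (log2 change -0.12 ± 0.14, adjusted p 0.623). Of the 5 signalling SMADs tested, Smad5, which transduces BMP signals, rose by 1.00 ± 0.14, from 12.1 ± 1.34 to 24.3 ± 0.892 CPM. Smad3 passed at 0.46 ± 0.14 in the fit to all libraries, but its call was lost without untreated library 1, untreated library 3, treated library 1 or treated library 2 (adjusted p up to 0.236). Smad2 itself was at 45.4, 39.6 and 41.5 CPM untreated and 39, 35.9 and 38.2 CPM treated (adjusted p 0.424).

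Genes for release of the ligand changed in both directions. Itgav, the integrin αV subunit through which latent TGF-β is bound and activated, was at 73.9, 57.6 and 76.8 CPM untreated and 278, 268 and 256 CPM treated, a rise of 1.95 ± 0.19 on the log2 scale. Furin, the protease that cleaves the TGF-β precursor, rose by 1.54 ± 0.16, from 89.4 ± 12.4 to 261 ± 8.84 CPM. Nrros, whose product tethers latent TGF-β1 on myeloid cells, fell from 366 ± 60.1 to 180.1 ± 13.6 CPM (log2 change -1.02 ± 0.20). Tgfb1 was at 140.5, 179 and 127 CPM untreated and 133, 135 and 111 CPM treated and did not pass (adjusted p 0.557). Bmp2, a BMP ligand, fell by 1.97 ± 0.44 on the log2 scale, from 8.75 ± 0.565 to 2.22 ± 0.31 CPM. The 3 tested ID genes, targets of BMP signalling that encode inhibitors of basic helix-loop-helix factors, all rose. Id2 was at 39.1, 41.3 and 49.8 CPM untreated and 135, 158 and 169 CPM treated, and Id3 at 2.58, 3.34 and 3.94 CPM untreated and 21.4, 18.9 and 18.5 CPM treated, log2 changes of 1.83 ± 0.24 and 2.58 ± 0.34. Id1 was low, going from 0.22 ± 0.156 to 1.15 ± 0.415 CPM (2.28 ± 0.60), and its call was lost without untreated library 2, untreated library 3 or treated library 3 (adjusted p up to 0.0796).

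Transcription factors of the myeloid lineage changed in both directions. Of 25 tested, 9 rose, 5 fell and 11 did not pass, with a median of 0.16; 6 to 8 rose and 3 to 7 fell when 1 library was left out, with the fewest falls without untreated library 2. The C/EBP genes, whose products direct granulocyte and macrophage differentiation, divided. Cebpa (chr7:35119293-35121928) was at 27.9, 31.6 and 27.2 CPM untreated and 220.1, 199.6 and 179 CPM treated, and Cebpb at 99.5, 229.9 and 227 CPM untreated and 355, 414 and 503 CPM treated. Cebpd (chr16:15887286-15891031) was at 114, 206 and 200.0 CPM untreated and 35.2, 34.4 and 36.5 CPM treated, the largest fall of any gene with at least 10 CPM in 1 group. The log2 changes were 2.79 ± 0.29 for Cebpa, 1.19 ± 0.29 for Cebpb and -2.29 ± 0.30 for Cebpd (adjusted p 3.46e-07, 0.0079 and 9.17e-06). Bhlhe40, a repressor expressed in proliferating macrophages, rose from 1.15 ± 0.205 to 10.3 ± 1.26 CPM, and Runx2, a RUNX factor known from bone, from 1.24 ± 0.922 to 5.86 ± 1.13 CPM. Ets2, an effector of RAS and ERK signalling, fell by 1.01 ± 0.20 on the log2 scale.

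Of 20 immediate early genes tested, 2 rose, 3 fell and 15 did not pass, with a median of -0.17; 1 to 2 rose when 1 library was left out, the lower number without untreated library 1 or treated library 1. Fos was at 86.6, 127 and 117 CPM untreated and 426, 405 and 367 CPM treated, while its AP-1 partner Jun was at 366, 557 and 492 CPM untreated and 158, 184 and 184 CPM treated. Every treated library was above the untreated range for Fos (1.86 ± 0.20) and below it for Jun (-1.43 ± 0.20). Batf and Batf3, AP-1 family members that dimerise with JUN proteins, fell by 1.24 ± 0.27 and 1.74 ± 0.27 on the log2 scale. Klf10, also named TGF-β-inducible early gene, was at 41, 42.9 and 57 CPM untreated and 189, 171 and 210.1 CPM treated (2.02 ± 0.24), and Klf13, a related factor, rose by 0.83 ± 0.11. Klf6, of the same family, fell by 0.88 ± 0.22 on the log2 scale, a call lost without untreated library 3 or treated library 1 (adjusted p 0.0571 and 0.058); 8 of the 11 Kruppel-like factors tested did not pass. Sik1, a kinase that holds CREB coactivators in the cytoplasm, was at 17, 18.1 and 13.8 CPM untreated and 3.93, 3.61 and 4.23 CPM treated (-2.06 ± 0.29). Nr4a1, an orphan nuclear receptor, and Pde3b, a cyclic nucleotide phosphodiesterase, rose by 1.97 ± 0.28 and 1.66 ± 0.26. Genes of RAS and ERK signalling had 3 rises and 3 falls among 21 tested, with a median of -0.43; the falls numbered 1 to 5 when 1 library was left out, 1 without treated library 1. Of the phosphatases that switch off MAP kinases, Dusp4 rose from 5.59 ± 1.86 to 22.3 ± 3.81 CPM and Dusp7 by 1.01 ± 0.21 on the log2 scale, while the RAS activator gene Rasgrp4 fell by 1.02 ± 0.24. Dusp8, another such phosphatase gene, passed lower (-1.80 ± 0.56), but that call was lost without untreated library 2, untreated library 3 or any treated library (adjusted p up to 0.252).

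Among clock genes, Usp2 (ENSMUSG00000032010, chr9:44067021-44095627), a deubiquitinase with rhythmic expression, was at 0.676, 0.212 and 0.57 CPM untreated and 22.2, 19.1 and 18.7 CPM treated. Its treated libraries were far above the untreated ones (log2 change 5.31 ± 0.39, adjusted p 1.44e-09). Per2, a core repressor of the clock, rose by 1.19 ± 0.24, and Csnk1e, a kinase that phosphorylates PER proteins, by 1.11 ± 0.16. In all 4 of 18 tested clock genes rose and 1 fell, with a median of 0.23; 3 to 4 rose when 1 library was left out.

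Of 14 secreted growth factors tested, 5 rose and none fell, with a list median of 0.92. Leaving out 1 library gave 4 to 6 higher and 0 to 1 lower. Pdgfa and Pdgfb encode the chains of platelet-derived growth factor, which acts on fibroblasts and smooth muscle. Pdgfa was at 2.54, 3.5 and 2.02 CPM untreated and 37.7, 47.6 and 41.2 CPM treated (3.97 ± 0.33), and Pdgfb at 14.5, 34 and 16.2 CPM untreated and 152, 182 and 141 CPM treated (2.88 ± 0.31). The treated and untreated values of both were several-fold apart in every library. Angptl2 (chr2:33216069-33247717), an angiopoietin-like secreted protein, was at 0.994, 1.17 and 0.622 CPM untreated and 19.9, 17.1 and 17.4 CPM treated (4.28 ± 0.31). Vegfa, the vascular endothelial growth factor, rose by 1.44 ± 0.20, from 96.9 ± 16 to 263 ± 6.97 CPM.

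Genes of the plasminogen and coagulation list rose in 5 of 18 tested, with none lower and a median of 0.35. Plaur, the urokinase receptor, rose by 1.57 ± 0.32, from 3.63 ± 0.98 to 10.7 ± 3.05 CPM. F2r, the thrombin receptor PAR1, had 3 reads over the untreated libraries and 158 over the treated ones, a CPM ratio of 52.7 (exact 95% interval 17.7 to 258). Without untreated library 1, untreated library 2 or treated library 3 the number of these genes that rose was 3.

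Of 28 tested genes for chondroitin and heparan sulfate enzymes and for proteoglycans, which build these sugar chains or carry them, 7 rose, 2 fell and 19 did not pass, with a median of -0.043; 6 to 7 rose when 1 library was left out. Chst3 (ENSMUSG00000057337, chr10:60181532-60219260), which sulfates chondroitin, was at 1.91, 1.96 and 1.04 CPM untreated and 18.4, 19.2 and 17.7 CPM treated (3.48 ± 0.20, adjusted p 4.23e-11). Xylt1, the xylosyltransferase that starts the chain, was at 3.54, 3.81 and 4.93 CPM untreated and 33.7, 31.1 and 35.4 CPM treated (3.03 ± 0.17). B4galt7, the galactosyltransferase that acts next, rose by 1.86 ± 0.15. Cspg4, a chondroitin sulfate proteoglycan of the cell surface, had no read untreated and was at 1.59, 2.07 and 1.77 CPM treated, at least 38.4-fold higher against 3 reads. Chst7, another sulfotransferase gene, and Dse, whose product converts chondroitin to dermatan sulfate, fell by 1.33 ± 0.26 and 0.65 ± 0.10 on the log2 scale. Tgfbi, the secreted TGF-β-induced matrix protein, was at 44, 62.9 and 49.2 CPM untreated and 727, 815 and 646 CPM treated, a log2 change of 3.81 ± 0.24. Of the metalloproteases, Mmp2, a gelatinase, and Adamts10 rose by 1.47 ± 0.35 and 1.59 ± 0.25, and Adamts4, an aggrecanase, fell by 1.40 ± 0.29.

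Several receptors for migration changed. Of 23 tested, 5 rose and 3 fell, with a median of -0.042, and 5 rose whichever library was left out. Cxcr4 (ENSMUSG00000045382, chr1:128588199-128592293), the receptor for CXCL12, was at 13, 16.5 and 12.8 CPM untreated and 134, 128 and 101 CPM treated. S1pr1, a sphingosine-1-phosphate receptor, was at 5.57, 7.63 and 5.91 CPM untreated and 45.1, 46.7 and 42.4 CPM treated. For both, every treated library was several-fold above every untreated one, with log2 changes of 3.10 ± 0.18 and 2.81 ± 0.22 (adjusted p 3.38e-11 and 4.41e-09). S1pr4 rose by 2.55 ± 0.35, from 0.86 ± 0.274 to 4.99 ± 1.17 CPM. Cx3cr1, the fractalkine receptor found on monocytes and microglia, had 2 reads over the untreated libraries and 288 over the treated ones, a CPM ratio of 144 (exact 95% interval 39.5 to 1196). The annotated span of Cx3cr1 covers Wdr48, Csrnp1 and other genes with more reads, so its reads are less certain. Fpr1 and Fpr2, formyl peptide receptors of inflamed tissue, fell by 0.93 ± 0.18 and 0.64 ± 0.13 on the log2 scale.

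Of 21 integrins and adhesion receptors tested, 4 rose, 2 fell and 15 did not pass, with a median of -0.16; the falls numbered 0 without untreated library 2, untreated library 3 or treated library 1. Besides Itgav, subunits of vitronectin, fibronectin and laminin receptors rose. Itgb5, the β5 partner of αV, was at 42.6, 66.7 and 43 CPM untreated and 203, 196 and 135 CPM treated (1.81 ± 0.24). Itga5, the fibronectin receptor subunit, rose from 234 ± 50.4 to 536 ± 45.1 CPM, and Itga6, a laminin receptor subunit, from 136 ± 4.38 to 338 ± 48.4 CPM. Itgb8, the β8 partner of αV, passed lower, from 0.588 ± 0.14 to 0.0504 ± 0.0523 CPM, but that call was lost without any 1 of the untreated libraries, treated library 1 or treated library 2 (adjusted p up to 0.134). In the actin cytoskeleton, Myh9, the heavy chain of non-muscle myosin II, was at 722, 879.6 and 804 CPM untreated and 1665, 1781 and 1561 CPM treated. The gain in mean level of Myh9 was among the 10 largest of any gene (log2 change 1.06 ± 0.11). Pdlim7, a scaffold on actin filaments, rose from 0.498 ± 0.314 to 7.36 ± 1.13 CPM, and Rhob, an endosomal small GTPase, by 1.22 ± 0.26 on the log2 scale. Rnd3, an atypical small GTPase that opposes RHOA, was at 33.9, 34.5 and 45.8 CPM untreated and 9.87, 11.1 and 13.1 CPM treated (-1.74 ± 0.20), and Vcl, the adhesion protein vinculin, fell by 0.92 ± 0.13. Among 13 tubulin genes, Tubb3 and Tubb2a, β-tubulin isotypes, fell by 2.24 ± 0.35 and 0.99 ± 0.18; 4 of the 13 fell in all, and 2 without untreated library 2. Tubb6, another β-tubulin, rose by 0.87 ± 0.23, a call lost without untreated library 1, untreated library 3 or treated library 2 (adjusted p up to 0.0867). Spata13, a guanine nucleotide exchange factor for RAC and CDC42, was at 1.03, 0.9 and 0.726 CPM untreated and 41.2, 40.2 and 40.6 CPM treated (5.5 ± 0.31).

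Other genes of the largest rises had varied roles. Pald1 encodes paladin, a phosphatase-domain protein of the vasculature. It was at 1.23, 0.9 and 0.415 CPM untreated and 25.3, 23.5 and 13.6 CPM treated (4.57 ± 0.51). Dmxl2, a regulator of the vacuolar proton pump, was at 5.89, 3.23 and 3.01 CPM untreated and 58.1, 62.5 and 61.8 CPM treated (3.89 ± 0.50). Tent5c, a poly(A) polymerase that stabilises messages of secreted proteins, was at 5.49, 6.57 and 7.1 CPM untreated and 94.2, 88.8 and 96.4 CPM treated (3.87 ± 0.30).

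The largest falls were mostly of regulators. Il10, the anti-inflammatory cytokine, was at 21.5, 33.6 and 36.3 CPM untreated and 7.34, 8.63 and 8.82 CPM treated (-1.88 ± 0.40, adjusted p 0.00246). Pim1, a serine/threonine kinase induced by cytokines, was at 157, 278 and 260.0 CPM untreated and 38.4, 60.1 and 88.9 CPM treated (-1.89 ± 0.33). Each treated library of both genes was below the lowest untreated one. Ndrg1, a gene induced by hypoxia and other stress, was at 112, 198 and 131 CPM untreated and 34.6, 51.3 and 47.2 CPM treated (-1.73 ± 0.22). Tob1, an antiproliferative protein that recruits deadenylases, fell from 41.7 ± 6.19 to 12.9 ± 1.93 CPM, the orphan receptor gene Gpr85 from 55.1 ± 2.78 to 17.5 ± 1.73 CPM, and Kif3c, a kinesin motor gene, from 119 ± 7.88 to 39 ± 2.7 CPM. L3mbtl3, a reader of methylated lysine, and Gm38383, a predicted gene, fell by 1.73 ± 0.22 and 1.91 ± 0.16 on the log2 scale.

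**Figure D3:**
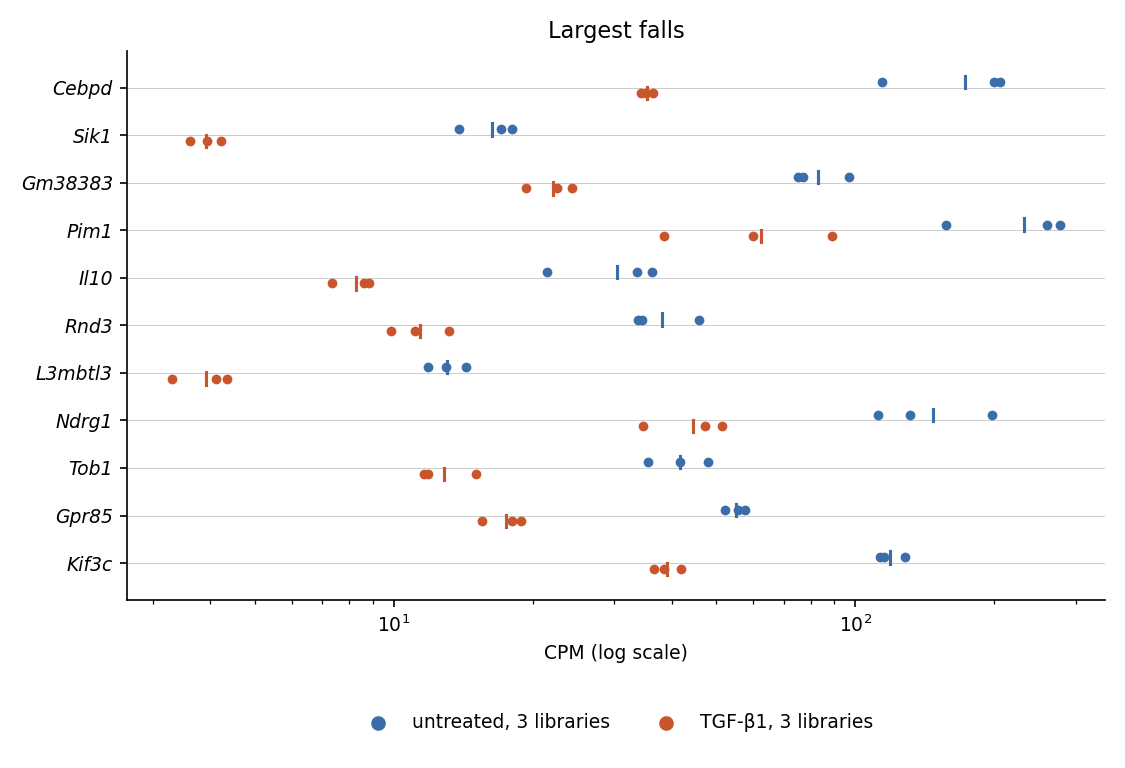
11 of the 12 largest falls among genes with a mean of at least 10 CPM in either group, with each library as a point on a log axis of CPM. The 3 treated libraries of each gene lie below the 3 untreated ones, with Cebpd from 173 ± 51.3 to 35.4 ± 1.05 CPM (SD, n = 3).

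The innate lists had no common direction. Of 18 inflammatory cytokines and effectors tested, 5 fell, 1 rose and 12 did not pass, with a median of -0.27. Over all genes tested, 3.74% fell and 7.37% rose. The 5 that fell included the anti-inflammatory Il10. When 1 library was left out 2 to 3 fell, the fewest without treated library 1 or treated library 2. Tnfsf9, a co-stimulatory ligand (4-1BB ligand), fell by 1.12 ± 0.25 on the log2 scale, from 16.2 ± 2.27 to 7.47 ± 0.85 CPM. Osm, the IL-6 family cytokine oncostatin M, was the member that rose, with 1.27, 2.12 and 1.66 CPM untreated and 9.07, 10.5 and 12.8 CPM treated (2.68 ± 0.31). Of 21 chemokines tested, 2 rose, 1 fell and 18 did not pass. Cxcl16, the transmembrane ligand of CXCR6, rose by 1.15 ± 0.16, and Cxcl14 by 1.84 ± 0.36, from 0.995 ± 0.153 to 3.59 ± 1.02 CPM. Ccl3, the chemokine MIP-1α, was at 739.5, 1086 and 1189 CPM untreated and 307, 378 and 476 CPM treated (-1.38 ± 0.40, adjusted p 0.0266). Its call was lost without untreated library 2, untreated library 3, treated library 1 or treated library 2 (adjusted p 0.081, 0.0931, 0.116 and 0.0735).

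Toll-like receptors and their adaptors divided, with 5 of 20 lower and 1 higher and a median of -0.30; 3 to 6 were lower when 1 library was left out, the fewest without untreated library 2, untreated library 3 or treated library 1. Tlr2, the receptor for bacterial lipoproteins, was at 176, 194 and 211 CPM untreated and 552, 524 and 572 CPM treated (1.5 ± 0.17). Its coreceptor partners went the other way: Tlr6 fell by 0.59 ± 0.14 and Cd14, the lipopolysaccharide coreceptor, by 0.74 ± 0.17 on the log2 scale. Irak3, an inhibitory kinase of the pathway, fell from 233 ± 6.21 to 140.3 ± 16.8 CPM. Of the inhibitors of NF-κB, Nfkbiz, an inducible nuclear IκB, fell by 0.96 ± 0.11, from 465 ± 14.1 to 239.7 ± 30.4 CPM, while Nfkbid, another nuclear IκB, and Tnip2, a partner of the ubiquitin editor A20, rose by 0.77 ± 0.18 and 0.74 ± 0.17. In the TNF receptor family 4 of 15 fell and 2 rose, with a median of -0.038; no rise was left without untreated library 1, treated library 2 or treated library 3. Tnfrsf26 and Tnfrsf23, decoy-type receptors of mice, fell by 0.96 ± 0.18 and 0.78 ± 0.17, and Tnfrsf14, the receptor HVEM, by 0.63 ± 0.13. The inhibitory receptor gene Pirb was at 1044, 1347 and 1272 CPM untreated and 599, 705 and 725 CPM treated (-0.85 ± 0.17). Clec4a2 and Clec4a1, C-type lectins, fell by 0.68 ± 0.13 and 0.89 ± 0.12.

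Gene groups for antigen presentation, complement and interferon responses had few calls, where 11.1% of all genes tested passed. Whether these lists differed from that share was not tested. None of 21 antigen presentation genes and none of 17 complement genes passed in edgeR's quasi-likelihood test, with list medians of -0.37 and -0.34, and 1 of 28 interferon-induced genes passed, higher, with a list median of -0.30. That call was lost whichever library was left out. At an unadjusted p under 0.05 there were 1 higher and 2 lower antigen presentation genes and 4 lower complement genes, and DESeq2 called 1 lower in each list. None of 23 sterol synthesis genes was called by edgeR or DESeq2, with a median of -0.37 and 5 lower at an unadjusted p under 0.05, although 20 of the 23 had all treated libraries below all untreated ones. The same held for 9 of the 21 antigen presentation genes and 7 of the 17 complement genes. Over all tested genes, 17.7% did not overlap with treated libraries higher and 16.1% with treated libraries lower.

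**Figure D4:**
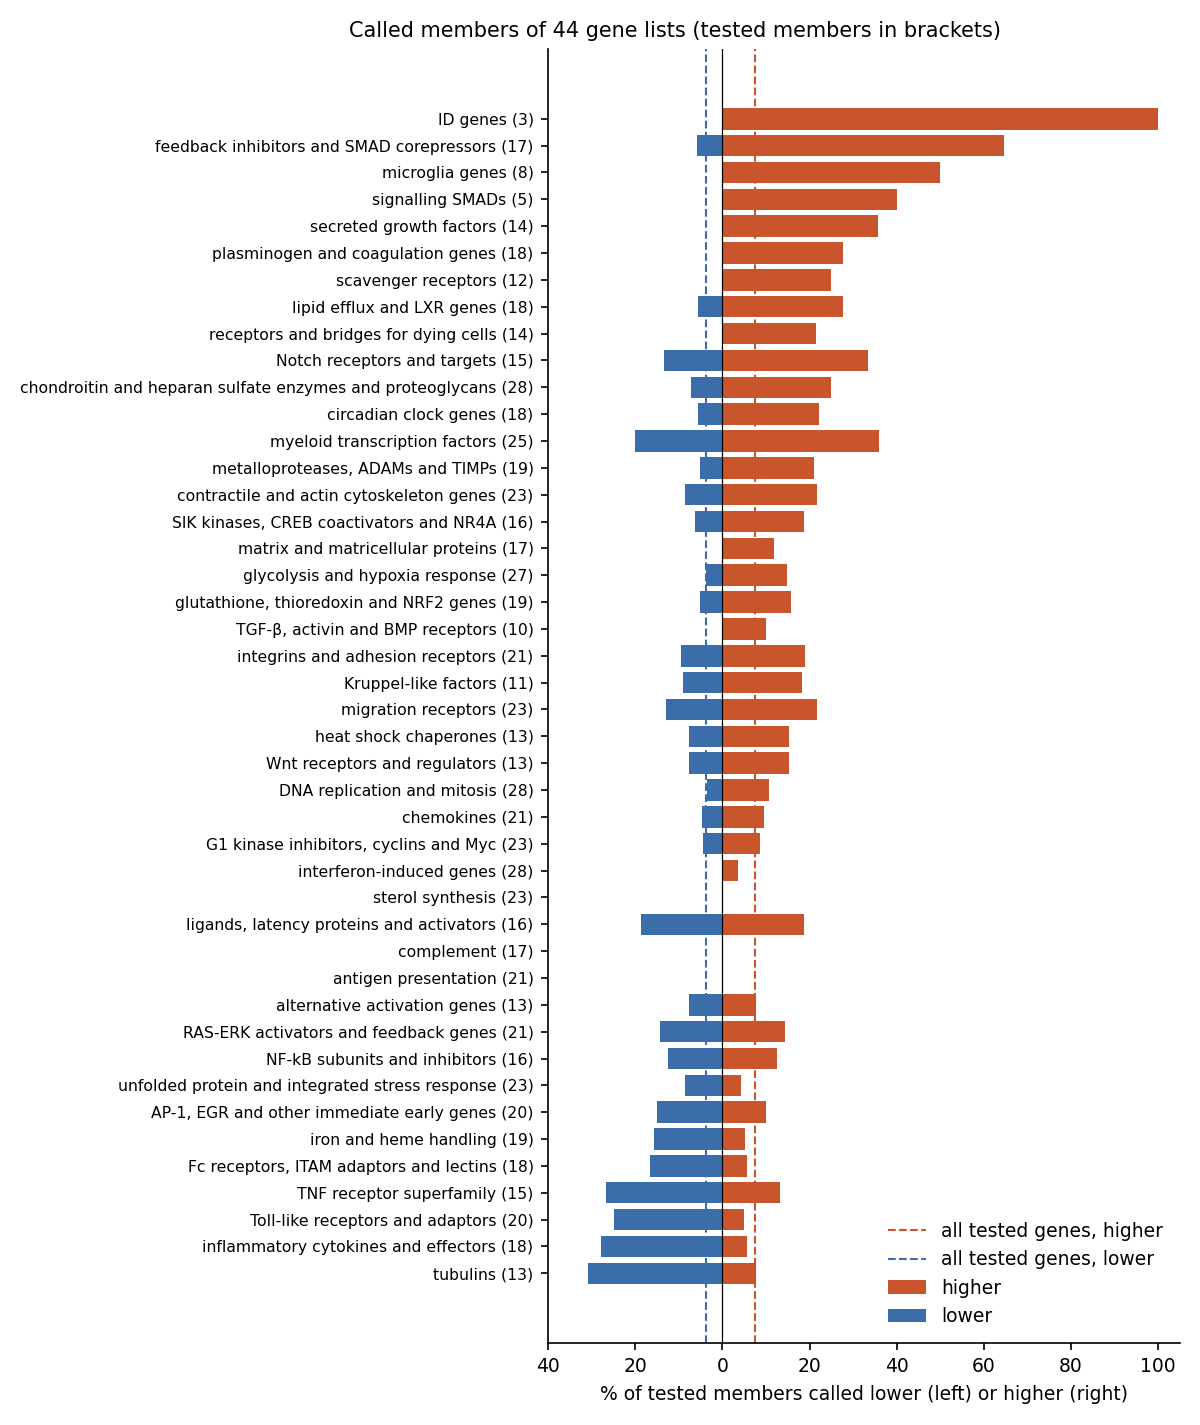
For each of the 44 gene lists, the percent of tested members that passed, higher or lower after TGF-β1, with the shares over all 14261 genes (7.37% and 3.74%) as vertical lines. The list of feedback inhibitors, with 11 of 17 higher, and the 3 ID genes reach furthest to the higher side.

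Of 18 genes of lipid efflux and liver X receptor signalling tested, 5 rose, 1 fell and 12 did not pass, with a median of -0.031; the counts of rises and falls were the same whichever library was left out. Abca1, the cholesterol exporter, was at 347, 305 and 308 CPM untreated and 1031, 1168 and 1003 CPM treated (1.74 ± 0.21). Abcg1, which exports cholesterol to high-density lipoprotein, rose from 195 ± 37.9 to 425 ± 34.7 CPM, and Mylip, a ubiquitin ligase for lipoprotein receptors, from 74 ± 9.6 to 167 ± 7.56 CPM. Rxra, the partner of the liver X receptors, and Ppard, a fatty acid-sensing nuclear receptor, rose by 1.5 ± 0.17 and 1.82 ± 0.15. Pparg, a lipid-sensing nuclear receptor, was at 20.2, 32.2 and 27.2 CPM untreated and 7.95, 9.99 and 9.91 CPM treated (-1.51 ± 0.18). Olr1, the receptor for oxidised low-density lipoprotein, had 3 reads over the untreated libraries and 185 over the treated ones, a CPM ratio of 61.7 (exact 95% interval 20.8 to 302).

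Of 19 glutathione, thioredoxin and NRF2 genes tested, 3 rose, 1 fell and 15 did not pass, with a median of -0.18. Over all genes tested, 7.37% rose and 3.74% fell. When 1 library was left out, 2 to 3 of the list rose and 1 to 2 fell. Gclm and Gclc encode the subunits of the rate-limiting enzyme of glutathione synthesis. Gclm was at 17.7, 11.7 and 13.6 CPM untreated and 71.4, 59.9 and 63.7 CPM treated (2.18 ± 0.22), and Gclc rose by 1.39 ± 0.28, from 8.54 ± 3.22 to 22.5 ± 6.43 CPM. G6pdx, which supplies NADPH, fell by 0.67 ± 0.15. Slc40a1, the iron exporter ferroportin, was at 22.7, 13.6 and 20.2 CPM untreated and 7.72, 4.05 and 6.99 CPM treated (-1.60 ± 0.30), and Blvra, which reduces biliverdin, fell by 0.60 ± 0.11. Hk2, an inducible hexokinase, rose from 179.6 ± 1.77 to 439 ± 55.2 CPM. Of 13 alternative activation genes tested, 1 rose, 1 fell and 11 did not pass, with a median of 0.048. When 1 library was left out, 1 rose and 0 to 2 fell. The member that rose was Tgm2, a transglutaminase, by 1.74 ± 0.23, from 38.3 ± 7.33 to 128 ± 1.22 CPM. Xdh, xanthine dehydrogenase, was at 499.9, 508 and 530.1 CPM untreated and 1067, 1059 and 1068 CPM treated (1.05 ± 0.19).

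Of 8 tested genes of a microglia list, 4 rose, none fell and 4 did not pass, with a median of 0.80 and a lowest log2 change of -0.47. The counts of rises and falls were the same whichever library was left out. Besides Cx3cr1 the genes that rose included Olfml3, a secreted olfactomedin-like protein, and Gpr84, a receptor for medium-chain fatty acids. Olfml3 was at 2.07, 2.59 and 3.63 CPM untreated and 22, 20.1 and 15.6 CPM treated (2.81 ± 0.32). Gpr84 rose by 1.97 ± 0.21.

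In the Notch pathway 5 of 15 tested genes rose and 2 fell, with a median of 0.69, and 5 to 6 rose when 1 library was left out. Jag1, a Notch ligand, was at 1.35, 0.688 and 1.76 CPM untreated and 12.6, 10.9 and 14.1 CPM treated (3.29 ± 0.35). Hey1, a Notch target that encodes a repressor, had 2 reads over the untreated libraries and 51 over the treated ones, a CPM ratio of 25.5 (exact 95% interval 6.71 to 216). Lfng, which glycosylates Notch, and Dtx4, a Deltex ubiquitin ligase, rose by 1.59 ± 0.27 and 1.74 ± 0.15. The receptors divided, with Notch1 at 0.69 ± 0.15 and Notch2 at -0.77 ± 0.14, and Dtx2 fell by 1.31 ± 0.31. Znrf3, a ligase that removes Wnt receptors, was at 0.358, 0.265 and 0 CPM untreated and 9.49, 9.73 and 9.39 CPM treated (5.41 ± 0.53).

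Of 23 G1 kinase inhibitors, cyclins and Myc genes tested, 2 rose, 1 fell and 20 did not pass, with a median of -0.37. Of 28 genes of DNA replication and mitosis, 3 rose, 1 fell and 24 did not pass, with a median of 0.028. Over all genes tested, 11.1% passed. Cdkn2b, the inhibitor p15 that is a classical TGF-β target in epithelial cells, was at 7.32, 6.62 and 7.16 CPM untreated and 1.92, 1.58 and 1.88 CPM treated. Here it fell, with the groups apart (-1.97 ± 0.26, adjusted p 8.43e-06). E2f2, a factor for S-phase genes, was at 1.39, 0.794 and 1.19 CPM untreated and 16.1, 12.1 and 12.5 CPM treated (3.57 ± 0.29). Cdt1 and Mcm6, which license replication origins, rose by 1.23 ± 0.18 and 0.95 ± 0.15. Of 23 genes of the unfolded protein and integrated stress response tested, 1 rose, 2 fell and 20 did not pass, with a median of -0.18. The 2 that fell were Atf6 and Herpud1, by 0.89 ± 0.15 and 0.89 ± 0.16. Hspa8, the constitutive HSC70 chaperone, was at 4659, 5731 and 5129 CPM untreated and 3584, 3025 and 2808 CPM treated, 1 of the 10 largest losses of level (-0.72 ± 0.17), while its cochaperone gene Bag3 rose by 1.00 ± 0.15.

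Further large gains of level were of Plec, which encodes the cytoskeletal linker plectin, at 385, 505 and 434 CPM untreated and 1248, 1234 and 1208 CPM treated (1.48 ± 0.15), and of Sgk1, a kinase induced by serum and glucocorticoids, from 175 ± 28.4 to 784 ± 34.1 CPM. Tns3, a focal adhesion protein, rose from 449.7 ± 15.9 to 993 ± 24.1 CPM. Rassf4, a RAS-association protein, fell from 2803 ± 185 to 1186 ± 119.6 CPM, and Gas7, a membrane-bending protein, from 1028 ± 103 to 414 ± 62.3 CPM. Capns2 and Gm41361 had no read untreated and were at least 15.3-fold and 11-fold higher against 3 reads. Both overlap a gene with far more reads. Over the 24 libraries Capns2 had 132 reads against 20700 of Lpcat2 on the same strand, and Gm41361 had 116 against 36420 of Pdgfb on the opposite strand.

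The response was set beside that of the libraries labelled MyS2KO, described as Smad2-deleted in myeloid cells, and of the Smad3 fl/fl libraries, each with 3 untreated and 3 treated libraries of their own. Gene-level Smad2 was at 40.4 ± 2.91 CPM untreated and 40.3 ± 6.30 CPM treated in the libraries labelled MyS2KO (SD, n = 3), against 42.2 ± 2.98 and 37.7 ± 1.65 CPM in Smad2 fl/fl, so it did not show the deletion. The difference between the Smad2 fl/fl response and that of the libraries labelled MyS2KO passed for 1 of 14261 genes (0.00701%) in edgeR, with 490 at an unadjusted p under 0.05 and 8 by DESeq2. The difference from the Smad3 fl/fl response passed for 0 genes (0%), with 464 at an unadjusted p under 0.05 and 11 by DESeq2. The gene was Chst3. Its mean level went from 1.64 ± 0.517 to 18.4 ± 0.751 CPM in Smad2 fl/fl (SD, n = 3), from 4.10 ± 0.795 to 12.3 ± 1.41 CPM in the libraries labelled MyS2KO and from 1.41 ± 0.134 to 10.4 ± 1.09 CPM in Smad3 fl/fl. In the libraries labelled MyS3KO, which the figure leaves out, Chst3 also rose, from 1.04 ± 0.0539 to 16.2 ± 0.306 CPM. The difference from that response was not tested. The log2 response was larger by 1.89 ± 0.27 (SE) in Smad2 fl/fl than in the libraries labelled MyS2KO (edgeR adjusted p 0.00675), where untreated levels were higher and treated levels lower in every library. This call was lost without untreated library 3 or treated library 2 of the MyS2KO label, and in a fit to the 12 libraries of the Smad2 line alone. Against Smad3 fl/fl the Chst3 difference was 0.60 ± 0.28 (edgeR adjusted p 1).

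**Figure D5:**
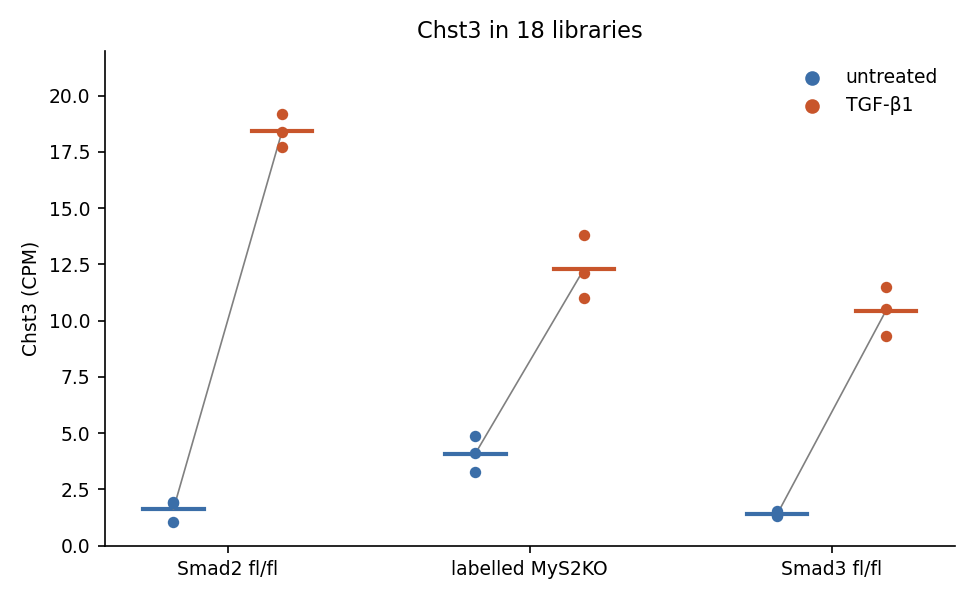
Chst3 in CPM in each library (points) of the Smad2 fl/fl, MyS2KO-labelled and Smad3 fl/fl groups, untreated and after TGF-β1, with group means as lines. The Smad2 fl/fl treated libraries, at 18.4, 19.2 and 17.7 CPM, lie above all treated libraries of the other groups shown, and the untreated MyS2KO-labelled libraries above all other untreated ones.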

How the data were processed

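RNA of 24 samples was sequenced with 150-base reads, per the labels. The authors deposited a table of raw counts per gene and a table of FPKM values on the mm10 (GRCm38.p6) annotation; the tools listed in the submitters' processing notes are Cufflinks 2.1.1, HTSeq 0.6.1 and TopHat2 2.0.9, while how reads were assigned and whether strand was used is not given in the sources used here. Without strand, reads of overlapping genes cannot be told apart. Among genes named, Angptl2, Adamts4, Cxcl16, Irak3, Vcl, Plec, Pdgfa, Rasgrp4, G6pdx, Tnfsf9, Tgm2, Runx2, Cebpb, Cebpd, Cx3cr1, Capns2 and Gm41361 overlap another gene, and tubulins, Fpr, Clec4a and mouse decoy TNF receptor genes have near copies.

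Counts of all 24 libraries were fitted together as 8 groups in edgeR 4.0.16 (R 4.3.3): TMM factors, low counts removed with filterByExpr, quasi-likelihood tests, Benjamini-Hochberg adjustment over all 14261 genes, called under 0.05. Every adjusted p printed is from this test. The treated and untreated Smad2 fl/fl groups were compared, and their response was tested against that of the other groups as a difference of responses. FPKM values were used to set levels of genes side by side and, with limma 3.58.1 on log2(FPKM + 1) or log2(FPKM + 0.1), as an alternative, a scale that understates changes of low genes. DESeq2 1.42.0, RLE factors, other filters, fewer libraries, a replicate block and leaving out each library were the other alternatives. Intervals cover counting error only. Libraries of a group differed beyond sampling noise, with a chi-square per gene of 15.89 to 81.71.

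The genes and the 44 lists were chosen with earlier results of these data known, so a list's count is a description. Named are the 12 largest rises and falls reaching 10 CPM, the 10 largest gains and losses of level, up to 4 called members of a list in each direction with its first 2 members, genes that differed between responses, and 5 with no read in 1 group; not every gene so chosen is printed, and some are not reported here.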

Additional observations from a re-analysis of the deposited data

Results flagged for a closer look

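Chst3 is listed because its response differed between groups treated the same way: the log2 change was larger by 1.89 ± 0.27 (SE) in Smad2 fl/fl than in the libraries labelled MyS2KO, by edgeR's test of the difference (adjusted p 0.00675). In both, every treated library was above every untreated one. The untreated MyS2KO-labelled libraries were at 4.12, 3.29 and 4.88 CPM and the treated ones at 12.1, 11 and 13.8 CPM. With 3 libraries a group, no library was tested as standing apart within its group.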

How the results depend on the processing

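Of the 152 genes named that passed, 143 passed under every alternative that gave a value, 15 for each but Itgb8 (14), Capns2 (13) and Gm41361 (12). None of the 157 named changed direction under those run. RLE factors moved the median log2 change of all genes from 0.009 to -0.007. The number of genes lower was 802 with the 6 Smad2 fl/fl libraries alone and 807 with the 12 of the Smad2 line alone; the 6 alone shared 981 of the genes higher and 470 of those lower. Leaving out 1 library gave 307 to 642 lower. The cause was not tested. The number of genes whose response differed from that of the MyS2KO label was 8 by DESeq2, 13 with no filter, 0 with the 12 libraries and 0 to 1 leaving out 1 library. The number differing from Smad3 fl/fl was 11 by DESeq2, 22 with no filter and 0 to 2 leaving out 1 library, with 2 without Smad3 fl/fl untreated library 3 and 1 without treated library 1. Replicate numbers were not used to pair the samples in the main fit, and the labels do not say whether they pair them. Same-numbered deviations correlated at 0.0465, 0.135 and 0.159, each the highest of its library. This is a hint of pairing from the data and not from the design. With a replicate block 3236 genes passed, 1742 higher and 1494 lower, and 2 and 13 genes differed from the MyS2KO label and from Smad3 fl/fl. Depth of 19495444 to 24918582 reads limits genes under 1 CPM, where 2.43% passed.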

Other observations

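The 44 gene lists, chosen with earlier results known, held 763 of the 14261 tested genes; 189 of the 763 passed, the other 1395 genes that passed were in none of the lists, and 1455 of the 1584 were protein coding. Among the largest gains of level outside the lists, Cpd, which encodes the Golgi carboxypeptidase D, was at 263, 216 and 229 CPM untreated and 875, 968 and 895 CPM treated (1.95 ± 0.18). Gna13, the G protein subunit that activates RHOA, rose from 418 ± 23.3 to 906 ± 71.7 CPM (1.12 ± 0.18). Atp6v1b2, a subunit of the vacuolar proton pump of lysosomes, fell from 1113 ± 131 to 647 ± 11.7 CPM (-0.78 ± 0.14). For each of these the treated and untreated libraries did not overlap.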
